A study of Homo sapiens with 4 samples.

Results

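Most proteins of the mitochondrion are made in the cytosol and carried in through dedicated channels, and the genes of that machinery were read here across H9 cells, an established line of human embryonic stem cells, with and without guides against the long non-coding RNA gene SNHG26. Members were the protein-coding genes whose symbol starts with TOMM and a digit, with TIMM, or with CHCHD and a digit, together with PAM16, DNAJC19 and GRPEL1. This gave 37 genes of the 16174 listed. By name and role, 10 were grouped with the outer membrane translocase, 6 as small TIM chaperones and 9 with the inner membrane translocases. Another 4 were grouped with the import motor, and 8 carry the CHCHD name. The outer membrane group includes TOMM34, a cytosolic co-chaperone, and the inner membrane group includes TIMMDC1, an assembly factor of complex I.

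All cells were primed H9 cells carrying the PB-TetO-AIO-dCas9-BFP-KRAB vector, in which doxycycline switches on dCas9-KRAB, a Cas9 that cannot cut fused to a repressor domain. The vector and guides were put in with the hyPBase transposase and kept by 6 days of puromycin, and nothing in the labels describes the picking of single clones. The SNHG26 guide arm carried 4 pooled guides against SNHG26 and the control arm carried non-targeting guides. Each arm received 1 µg/mL doxycycline for 2 or 3 days and gave 1 nanopore cDNA library per day, so each arm had 2 libraries that also differ in day, and no library without doxycycline was analysed here. Nothing in the labels says whether the libraries came from separate cultures, so p-values measure only the spread between these libraries.

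The libraries were shallow, at an estimated 435826 to 552649 reads. The targeted gene was listed at 0 and 0.933 TPM with the SNHG26 guides on days 2 and 3, against 2.98 and 4.03 TPM with the control guides, a limma log2 change of -1.69 (SE 0.58, adjusted p 0.935, unadjusted 0.0417), so the knockdown went in the labelled direction and did not pass the test. Of 12 markers of primed pluripotent cells, 11 were listed and 10 had a value in all 4 libraries, with summed levels of 1658 and 1795 TPM in the SNHG26 guide libraries and 1786 and 1895 TPM in the controls. POU5F1 was the largest part of each sum, at 1050 and 1212 TPM against 1068 and 1175 TPM. Single markers went either way. DPPA4 held 210 and 183 TPM against 315 and 266 TPM, and SALL4 12.8 and 14.2 TPM against 9.13 and 9.18 TPM. ZIC2 was listed at 0 in all 4 and TDGF1 is not analysed here. Listed markers of mesendoderm (3 of 7) and of amnion and trophectoderm (2 of 6) summed to at most 1.98 and 1.29 TPM in any library, with EOMES, FOXA2 and ISL1 at 0. Of the neuroectoderm list only NES was listed (17.1 to 24.5 TPM), and COL1A1 and COL1A2 of the fibroblast list summed to between 7.95 and 11.9 TPM.

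Precursor proteins enter through the TOM complex of the outer membrane, where TOMM20, TOMM22 and TOMM70 act as receptors, TOMM40 forms the channel, and TOMM5, TOMM6 and TOMM7 are small subunits of it. Proteins with a presequence then pass the TIM23 complex and are drawn into the matrix by the motor of mitochondrial HSP70 with its helpers, while carrier proteins are escorted by small TIM chaperones to the TIM22 complex. Many small proteins with paired cysteine motifs, among them the CHCHD family and the small TIMs, are trapped in the intermembrane space by the oxidative relay of CHCHD4, also called MIA40. Pluripotent stem cells lean on glycolysis yet keep a working respiratory chain, most of whose parts are imported.

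The start site of 1 member, TOMM7, lies on chromosome 7 close to the targeted gene. TOMM7 is listed at 22812628 to 22822849 on the minus strand and SNHG26 at 22853869 to 22913785 on the plus strand, so the listed starts stand 31.02 kb apart and the genes are read away from each other. KRAB can spread repression from the site where it is placed, so the promoter windows of both genes are shown. They are accompanied by those of TOMM20, a receptor gene known as a target of the factors NRF1 and NRF2, and of TIMM29, the tested member with the highest coefficient of variation between libraries. Windows are from RefSeq (GRCh38.p14), 250 bases before to 50 after the annotated start, written 5′ to 3′ on the strand of the gene. Motifs were searched on both strands: the NRF1 core, the letters CCGGAAG bound by ETS factors such as NRF2, the CCAAT box bound by the factor NFY, the YY1 core, and the TATA box in its form TATAAA. Capitals mark the matches, none of which overlapped another in these windows.
TOMM7, chr7:22822800-22823099, minus strand: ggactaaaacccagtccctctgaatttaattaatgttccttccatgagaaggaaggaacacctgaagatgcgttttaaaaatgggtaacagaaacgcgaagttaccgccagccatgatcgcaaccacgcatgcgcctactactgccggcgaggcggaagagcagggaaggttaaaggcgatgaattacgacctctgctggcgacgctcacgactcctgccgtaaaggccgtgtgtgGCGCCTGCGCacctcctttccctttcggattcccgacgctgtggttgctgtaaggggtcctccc
SNHG26, chr7:22853990-22854289, plus strand: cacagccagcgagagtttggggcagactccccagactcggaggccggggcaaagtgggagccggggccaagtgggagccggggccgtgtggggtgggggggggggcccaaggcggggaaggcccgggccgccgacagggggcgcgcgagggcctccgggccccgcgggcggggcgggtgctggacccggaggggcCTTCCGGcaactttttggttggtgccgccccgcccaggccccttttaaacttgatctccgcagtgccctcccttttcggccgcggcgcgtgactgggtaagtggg
TOMM20, chr1:235128788-235129087, minus strand: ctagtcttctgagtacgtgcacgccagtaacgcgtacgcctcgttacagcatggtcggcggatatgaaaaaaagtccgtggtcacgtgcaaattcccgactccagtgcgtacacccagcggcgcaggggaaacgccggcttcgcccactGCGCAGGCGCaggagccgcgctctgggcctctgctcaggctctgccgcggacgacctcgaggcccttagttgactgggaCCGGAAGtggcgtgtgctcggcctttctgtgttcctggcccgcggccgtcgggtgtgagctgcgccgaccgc
TIMM29, chr19:10928561-10928860, plus strand: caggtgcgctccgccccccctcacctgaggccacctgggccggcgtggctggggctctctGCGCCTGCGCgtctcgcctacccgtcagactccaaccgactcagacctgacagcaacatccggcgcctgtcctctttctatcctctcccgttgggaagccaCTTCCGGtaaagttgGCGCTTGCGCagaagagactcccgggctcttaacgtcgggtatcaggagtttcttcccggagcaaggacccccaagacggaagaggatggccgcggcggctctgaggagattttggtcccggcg

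TOMM7 holds 1 NRF1 match, starting 14 bases before the annotated start. TOMM20 holds 1 NRF1 match and 1 ETS match, and TIMM29 holds 2 NRF1 matches and 1 ETS match. The SNHG26 window, whose start lies 371 bases inside the listed gene, holds 1 ETS match. Windows were found for 33 of the 37 members, and those of CHCHD7, GRPEL1, TIMM8B and TOMM5 were not used here. The ETS letters stood in 14 of the 33 (42.4%), against 18.1% of 11147 windows of protein-coding genes in the table, and the NRF1 letters in 7 (21.2%), against 10.7%. CCAAT was found in 11 (33.3% against 36.3%), the YY1 letters in 1, TIMM50 (3.03% against 2.68%), and TATAAA in 0 of 33, against 6.16%. The median GC content of the members' windows was 64.7%, against 65% for the same background. Where a gene had more than 1 window, a member kept the one nearest to its listed start. Any other gene kept the first in sorted order of position, so the members and the background were not chosen alike. The effect of this on the shares was not tested. A match describes letters in a window and is not evidence of binding. For PAM16 the RefSeq start lies 4286 bases from the listed one, so its window may describe another promoter.

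Most members were detected in every library. Of the 37, 35 had a value above 0 in all 4 libraries, and the same 35 had a mean of at least 1 TPM and were tested. TIMM23B, a near-identical copy of TIMM23 on the same chromosome, was listed at 0 in both SNHG26 guide libraries and at 0.503 and 0.216 TPM in the controls, at most 2.05 reads. TOMM20L, a paralog of TOMM20, was listed at 0 in all 4. The deposited TPM divides reads by genomic span, introns included, so the members, with a median span of 10.1 kb against 32.7 kb for all protein-coding genes with a value, stand higher on this scale than per transcript. Levels of different genes below are TPM per genomic span unless reads are named.

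**Figure D1:**
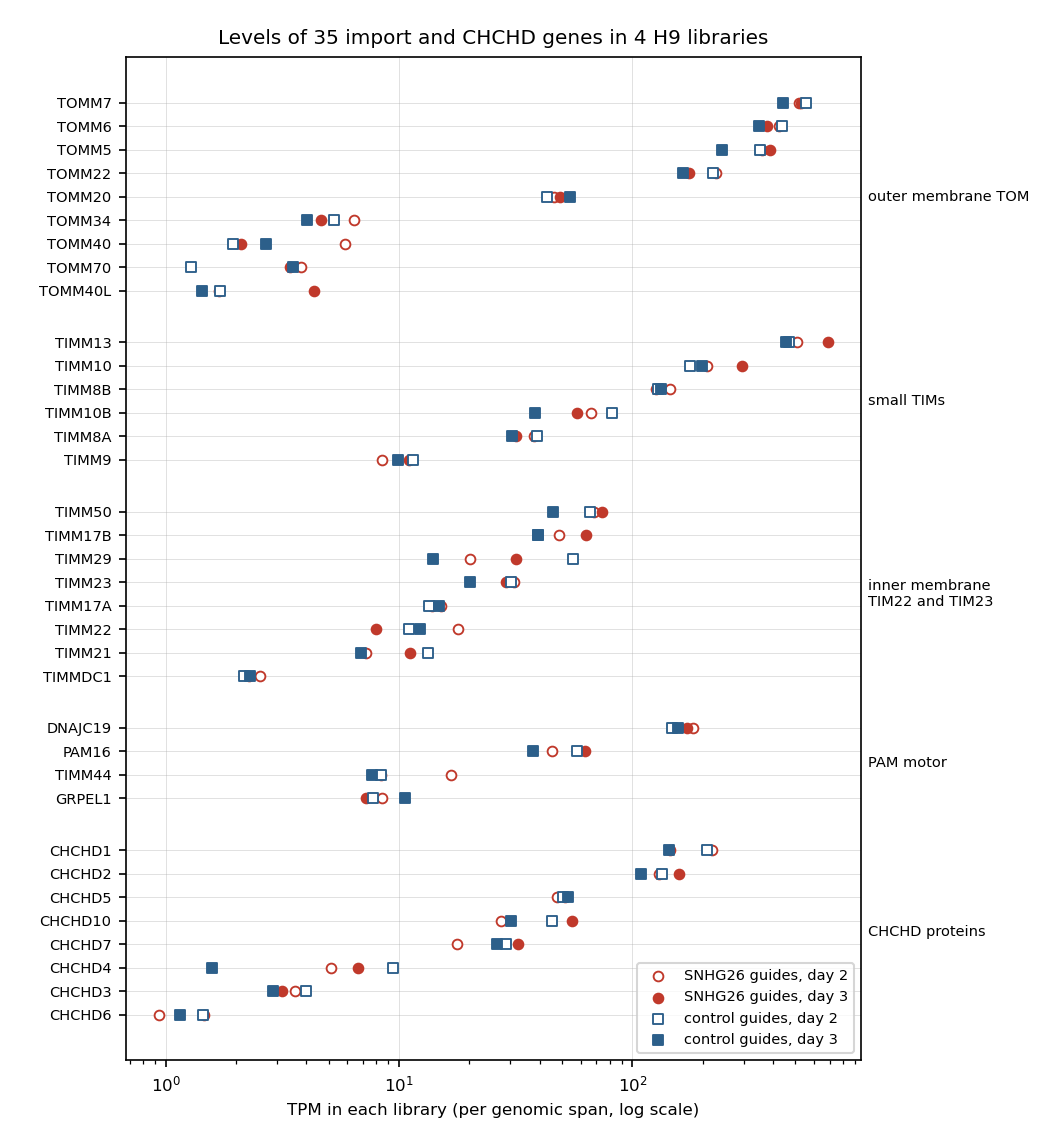
Level of each of the 35 tested genes in the 4 libraries, grouped by role, on a log axis of TPM per genomic span; open symbols are day 2 and filled symbols day 3, circles the SNHG26 guides and squares the control guides. Levels span from about 1 TPM (CHCHD6) to over 500 TPM (TIMM13, TOMM7), and the control library of day 3 (filled squares) is the leftmost symbol for 20 genes.

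In the outer membrane translocase, the small subunits were the highest. TOMM7, which helps hold the complex together and stabilises PINK1 on damaged mitochondria, stood at 517 and 528 TPM with the SNHG26 guides and at 552 and 444 TPM with the control guides (day 2, then day 3, here and below). TOMM6 stood at 426 and 378 TPM against 436 and 349.6 TPM. TOMM5 stood at 359 and 390.3 TPM against 351 and 242 TPM. The control library of day 3 was the lowest for all of these, and the TOMM5 values did not overlap between the arms while those of TOMM6 and TOMM7 did.

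Among the receptors, TOMM22 was listed at 229 and 175 TPM against 221 and 164 TPM, so the day 2 libraries were the higher in each arm. TOMM20 held 46.2 and 48.8 TPM against 43.2 and 54.0 TPM. TOMM70, the receptor for carrier precursors, held 3.80 and 3.41 TPM against 1.28 and 3.50 TPM. The TOMM70 values of the 3 higher libraries each equal 19.6 reads on the full gene span, or 1 read on a span of 1917 bases, so 1 short transcript read could set them, and the fourth equals 6 reads. TOMM40, the channel itself, held 5.85 and 2.10 TPM against 1.93 and 2.69 TPM, at most 10.5 reads in any library. TOMM40L, its paralog, held 1.69 and 4.30 TPM against 1.71 and 1.43 TPM on at most 3.17 reads, so the order within this pair was not settled. TOMM34, a cytosolic co-chaperone of HSP70 and HSP90, came out as whole reads, with 16 and 13 against 12 and 11 (6.39 and 4.65 TPM against 5.28 and 4.04).

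Among the small TIM chaperones, which shield hydrophobic precursors in the intermembrane space, TIMM13 was the highest of all members by mean TPM (530.0). It stood at 506 and 687 TPM with the SNHG26 guides and at 471 and 456 TPM with the control guides. TIMM10 stood at 209 and 295 TPM against 176 and 199 TPM. In both genes the SNHG26 guide libraries lay above both controls, and the SNHG26 guide library of day 3 was the highest. TIMM8B, whose start lies 26 bases from that of SDHD on the opposite strand, varied less, at 146 and 126 TPM against 129 and 132 TPM. Its X-linked paralog TIMM8A, the gene of Mohr-Tranebjaerg deafness-dystonia syndrome, held 37.9 and 31.8 TPM against 39.1 and 30.5 TPM. The ratio of TIMM8A to TIMM8B ran from 0.23 to 0.303 over the libraries, so the order of this pair was the same in all 4. TIMM10B was listed from 38.1 TPM (control, day 3) to 81.7 TPM (control, day 2), and TIMM9 from 8.48 to 11.4 TPM.

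The inner membrane translocases were lower by TPM per genomic span. Their estimated reads summed to 275 and 305 with the SNHG26 guides and to 245 and 215 with the control guides. Those of the small TIMs summed to 266 and 367 against 232 and 264. TIMM50, the receptor of the TIM23 complex, stood at 68.4 and 74.4 TPM with the SNHG26 guides and at 66.0 and 45.8 TPM with the control guides. TIMM23, its channel, came out as whole reads, with 133 and 138 against 117 and 94, or 31.0 and 28.8 against 30.1 and 20.2 TPM. The exact Poisson 95% intervals of these counts, which cover counting error only, run from 24.2 to 36.8 TPM over the 3 higher libraries and from 16.3 to 24.7 TPM in the control library of day 3. TIMM22, the channel for carriers, rested on 16, 8, 9 and 12 whole reads (17.8 and 7.99 against 11.0 and 12.3 TPM).

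TIMM17A and TIMM17B are alternative subunits of the TIM23 complex. TIMM17A held 15.2 and 13.8 TPM against 13.4 and 14.8 TPM. TIMM17B held 48.7 and 63.1 TPM against 39.5 and 39.4 TPM, so it was the higher by TPM in all 4 libraries. On reads estimated from the median transcript span of GENCODE release 29, the ratio of TIMM17A to TIMM17B was nearer to 1, from 0.566 to 0.98, and below 1 in all 4. TIMM17B lies wholly within the listed span of PQBP1 on the opposite strand, and strand use in counting is not given in the sources used here.

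TIMM29, a subunit of the TIM22 complex, had the highest coefficient of variation of the tested members. It stood at 20.2 and 31.7 TPM with the SNHG26 guides and at 55.6 and 14.0 TPM with the control guides, so the highest and the lowest value both came from the control arm. On the full gene span these are at most 13.1, 22.9, 32.7 and 9.82 reads. TIMM21, which links import to respiratory chain assembly, ran from 6.89 to 13.3 TPM, and TIMMDC1, an assembly factor of complex I, from 2.17 to 2.53 TPM.

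In the import motor, DNAJC19, the J-protein that stimulates mitochondrial HSP70, was listed at 181 and 172 TPM with the SNHG26 guides and at 148 and 157 TPM with the control guides, with both SNHG26 guide libraries above both controls. Its start lies 264 bases from that of SOX2-OT on the opposite strand. PAM16, the J-like partner of DNAJC19, stood at 45.3 and 62.6 TPM against 58.1 and 37.4 TPM, with the arms overlapping. PAM16 shares 15357 bases of its listed span with the read-through gene CORO7-PAM16 on the same strand, so its reads are uncertain. TIMM44, which tethers the motor to the channel, stood at 16.7 and 8.39 TPM against 8.39 and 7.66 TPM, where 1 library, SNHG26 guides on day 2, was apart from the other 3 and the SNHG26 guide library of day 3 was above the control of day 2 by less than the printed digits. GRPEL1, the nucleotide exchange factor of mitochondrial HSP70, ran from 7.23 to 10.6 TPM.

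Among the CHCHD genes, CHCHD1, a protein of the small mitochondrial ribosomal subunit, stood at 219 and 145 TPM with the SNHG26 guides and at 208 and 143 TPM with the control guides. The 2 day 2 libraries were alike and lay above the 2 day 3 libraries. CHCHD2, a gene mutated in some families with Parkinson disease, stood at 129.9 and 158 TPM against 134 and 109 TPM. Its paralog CHCHD10, mutated in some forms of motor neuron disease, stood at 27.3 and 55.0 TPM against 45.1 and 30.2 TPM, on at most 18 reads in any library. CHCHD2 was above CHCHD10 in all 4 libraries, with a TPM ratio from 2.88 to 4.77.

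CHCHD4, the import receptor of the intermembrane space, rested on 9 and 13 whole reads with the SNHG26 guides and on 15 and 3 with the control guides (5.13 and 6.64 against 9.42 and 1.57 TPM). CHCHD3, a subunit of the cristae-organising MICOS complex, was low by TPM, from 2.87 to 3.99, on a listed span of 297221 bases, yet it had an estimated mean of 133.6 reads per library, which ranked 3 among the members after TOMM7 and TOMM5. CHCHD6, the other MICOS member of the family, moved from rank 35 by TPM to rank 14 by estimated reads. CHCHD5 held 47.5 and 51.3 TPM against 50.6 and 53.1 TPM, and CHCHD7 ran from 17.8 to 32.2 TPM.

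Over the 35 tested members the coefficient of variation across the 4 libraries ran from 4.65% (CHCHD5) to 60.5% (TIMM29), with a median of 19.7%. Counting noise was taken as the smallest that the reads allow, since the reads are upper bounds from the full gene span. The spread was above that floor in 26 members and above 2 times the floor in 9. The same shares over all genes tested were not computed, so these counts are not read as particular to the members. The largest multiples were those of TOMM5 (4.16 times), PAM16 (2.99 times) and TIMM29 (2.68 times). These are the most that the reads allow, and their order depends on the bound. Estimated mean reads were 197.5 against a bound of 470 for TOMM5, 43.1 against 172 for PAM16 and 6.32 against 19.6 for TIMM29. TOMM7, with at most 732.5 reads per library on average, varied by 9.13% against a floor of 3.69%. Reads were amplified by 14 cycles of PCR without molecular identifiers, so they are not independent molecules.

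**Figure D2:**
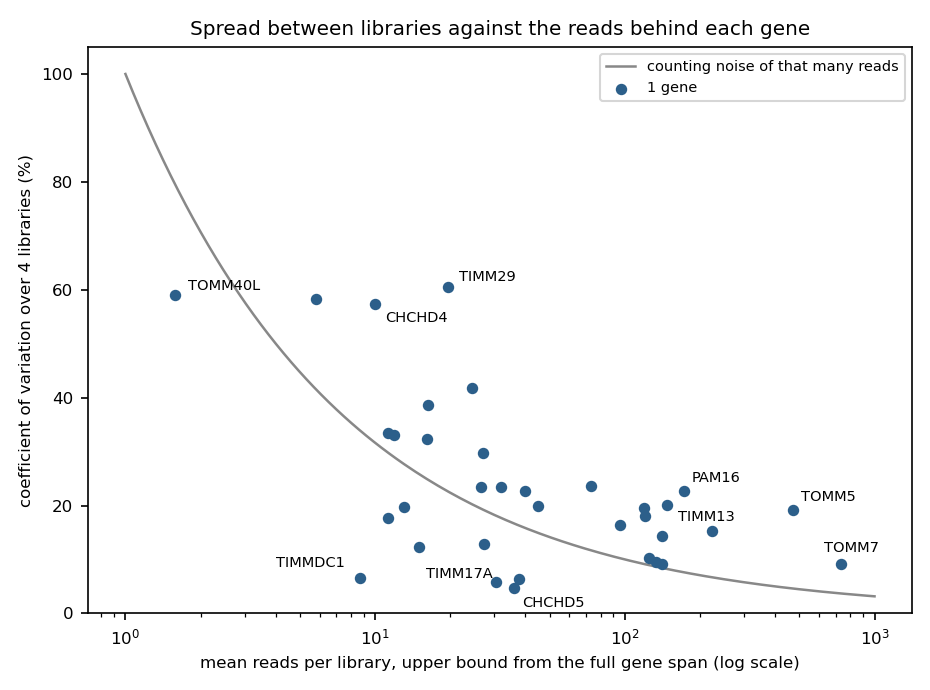
Coefficient of variation over the 4 libraries (percent) against the mean number of reads per library (log axis, upper bound from the full gene span), 1 point per tested gene; the line is the counting noise of that many reads. TOMM5, PAM16 and TIMM29 lie farthest above the line in proportion to it, while CHCHD5, TIMM17A and TIMMDC1 lie below it.

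The comparison of the guide arms asked whether repression of SNHG26 moved the import genes. No member passed the test. In limma's test, 0 of the 35 members had an adjusted p under 0.05 and 0 had an unadjusted p under 0.05, against 0% and 4.07% of the 8274 genes tested. With voom on whole reads, 0 of 4 members passed either. The lowest adjusted p of a member was 0.935 and the lowest unadjusted p 0.126, for TIMM17B. The median log2 change of the members was 0.07 (0.04 on day 2 and 0.16 on day 3), beside 0.04 for all genes tested. In bulk RNA, fewer cells of a kind and less RNA per cell cannot be told apart.

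Members with the same sign of change on both days numbered 12, of which 11 were higher with the SNHG26 guides (24.8% of all genes tested were higher on both days) and 1 was lower (21.8%). The rule for named genes took DNAJC19 (0.29 on day 2 and 0.13 on day 3), TIMM10 (0.24 and 0.56), TIMM17B (0.29 and 0.67), TIMM44 (0.92 and 0.12) and TOMM34 (0.23 and 0.16) as higher, and CHCHD5 (-0.09 and -0.05) as the only lower one. The mean log2 change was 0.48 for TIMM17B (SE 0.25, 95% interval -0.21 to 1.17) and 0.40 for TIMM10 (SE 0.24, interval -0.26 to 1.06). For DNAJC19 it was 0.21 (SE 0.17, interval -0.26 to 0.68). None of these differences was larger than the spread between libraries by limma's adjusted p of at least 0.935.

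**Figure D3:**
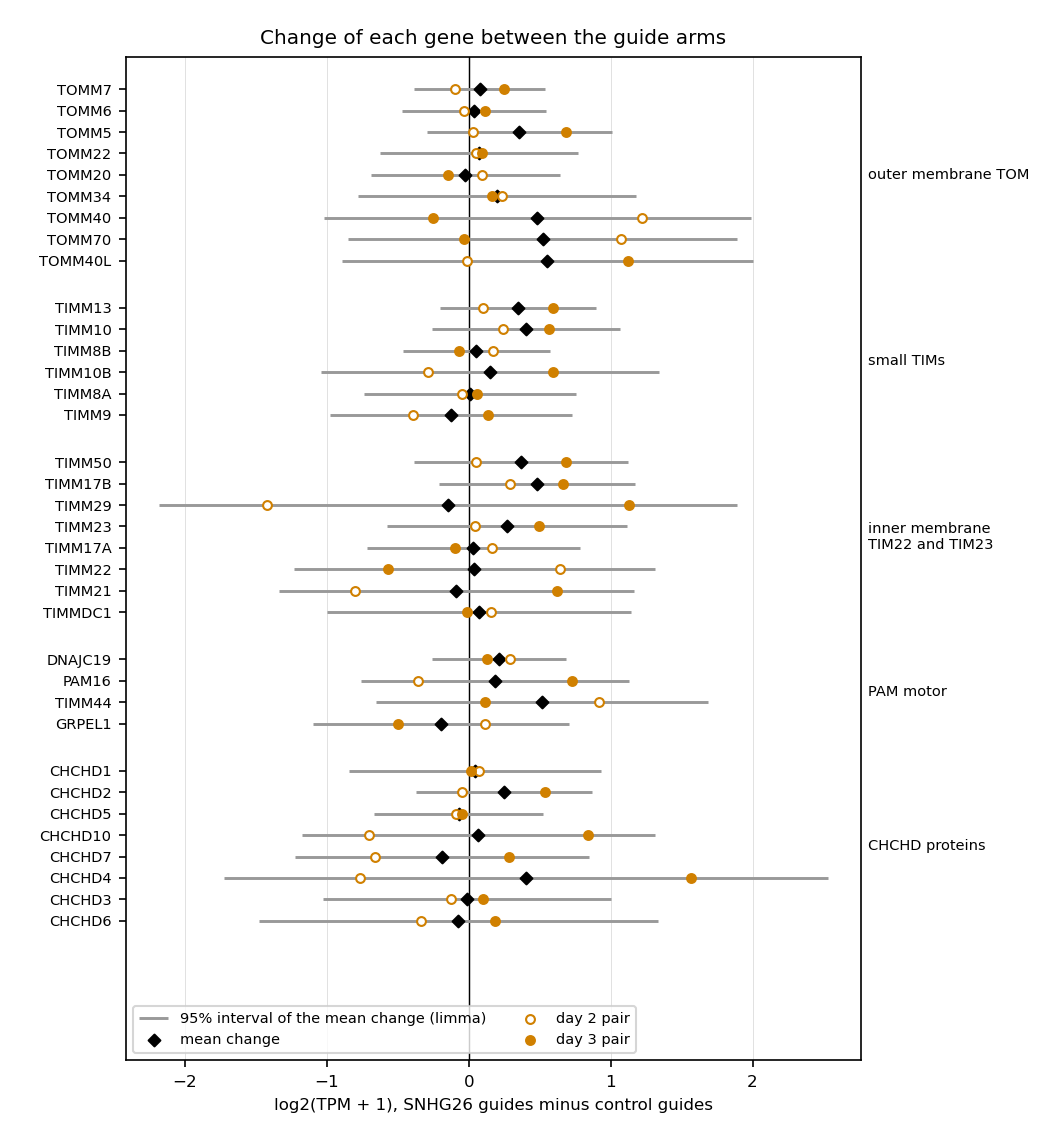
Change of each tested gene between the arms in log2(TPM + 1), with the 2 libraries of day 2 (open circles) and of day 3 (filled circles) compared separately, their mean (diamonds) and the 95% interval from limma (bars). Every interval includes 0, and TIMM29, CHCHD4 and CHCHD10 have changes of opposite sign on the 2 days.

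Both SNHG26 guide libraries lay above both controls for 7 members, DNAJC19, TIMM10, TIMM13, TIMM17B, TIMM44, TIMM50 and TOMM5, which is 20% of the members against 16.1% of all genes tested. Both lay below for 0 members, against 13.2%. With median ratio scaling the first count was 6, against 14.4%, so the share of members lay near that of all genes. TIMM13 had a log2 change of 0.35 (0.10 on day 2 and 0.59 on day 3), TIMM50 of 0.37 (0.05 and 0.69) and TOMM5 of 0.36 (0.03 and 0.68), so in these the difference was larger in the day 3 pair.

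By role, the median log2 change between the arms was 0.20 for the 9 tested genes of the outer membrane group. That median is the value of TOMM34, the cytosolic co-chaperone. It was 0.10 for the 6 small TIMs and 0.05 for the 8 tested genes of the inner membrane group. The 4 motor genes had a median of 0.20 and the 8 CHCHD genes of 0.02. None of these groups had a member past the test in either direction. For TOMM7, the neighbour of the target, the mean was 523 TPM ± 8.25 (SD, n = 2) with the SNHG26 guides and 498 TPM ± 76.5 (SD, n = 2) with the control guides. An exact two-sided permutation test over the 4 libraries gave p = 1, where the smallest p that the design allows is 0.333. The log2 change of TOMM7 was 0.08 with a 95% interval of -0.39 to 0.54, and without the control library of day 3 it was -0.080.

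All 35 intervals of the change between the arms included 0. Their half-width ran from 0.46 to 2.13 on the log2 scale, with a median of 0.89, which is a 1.85-fold change either way. For members with many reads the SE was above the smallest that counting allows, as in TOMM5 (0.24 against 0.07) and TOMM7 (0.17 against 0.05). For some members with fewer reads it was below, as in TIMM17B (0.25 against 0.26), CHCHD5 (0.22 against 0.24) and TIMM8B (0.19 against 0.24). The intervals of such members are narrower than counting alone allows.

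The control library of day 3 stood apart for these genes. It was the lowest of the 4 libraries for 20 of the 35 members (57.1%), against 25.5% of all genes tested. The other libraries were the lowest for 5 (SNHG26 guides, day 2), 3 (SNHG26 guides, day 3) and 7 members (control guides, day 2), against 21.5%, 19.3% and 21.1%. The members summed to 3482 and 3680 TPM with the SNHG26 guides and to 3458 and 2867 TPM with the control guides. The count was chosen after the values had been seen, and the background depends on depth. When only genes averaging 100 or more upper-bound reads were kept, the control library of day 3 was the lowest for 9 of 11 members (all but DNAJC19 and TOMM20), against 37.3% of 1196 genes.

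Without that library, 18 of the 35 members were higher with the SNHG26 guides, with a median log2 change of 0.015, beside 0.015 for all genes tested. With all 4 libraries 26 were higher and 9 lower, against 53.3% higher among all genes tested. With median ratio scaling the library was the lowest for 16 members (22.5% of all genes) and with quantile normalization for 14 (25.4%). The mRNAs encoded in the mitochondrial genome took 7.36% and 6.99% of 1000000 TPM with the SNHG26 guides and 8.57% and 8.90% with the control guides, the most in that library. The estimated reads of that library, 523576, lay within the range of the others. The part of either in the lower levels was not tested.

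**Figure D4:**
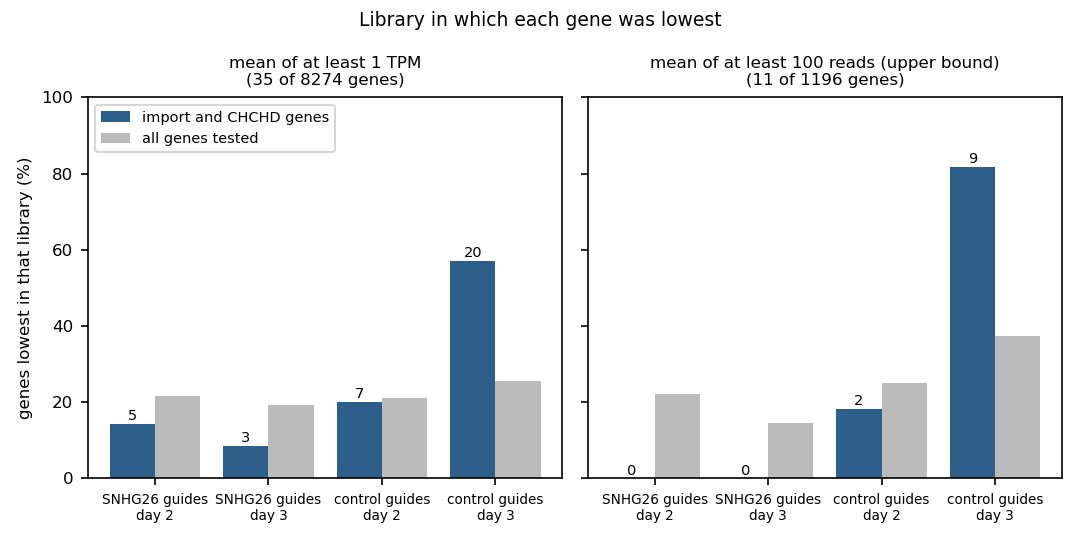
Share of genes (percent) whose lowest TPM was in each of the 4 libraries, for the import and CHCHD genes (blue, number of genes above the bar) and for all genes tested (grey), at a mean of at least 1 TPM (left) and of at least 100 reads as an upper bound (right). The blue bar for the control library of day 3 stands for 20 of 35 genes on the left and 9 of 11 on the right.

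The comparison of day 3 with day 2 asked whether members moved with the time on doxycycline. None passed, with 0 of 35 at a limma adjusted p under 0.05 (0.0363% of all genes tested) and 2 at an unadjusted p under 0.05 (6.61% of all genes tested). The 2 were CHCHD1 and TOMM22, and both were lower on day 3 in each arm. CHCHD1 changed by -0.59 with the SNHG26 guides and -0.54 with the control guides, a mean of -0.56 (SE 0.14, limma adjusted p 0.556, unadjusted 0.0169). TOMM22 changed by -0.38 and -0.42, a mean of -0.40 (SE 0.14, limma adjusted p 0.737, unadjusted 0.0473). On the full gene span CHCHD1 had at most 48.2 and 41.7 reads on day 2 and 35.7 and 34.2 on day 3. From such upper-bound reads, the smallest SE that counting allows was 0.23 for CHCHD1 and 0.15 for TOMM22. Both limma SEs lay below it, so the 2 unadjusted p-values rest on less spread than counting alone gives.

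Both day 3 libraries lay below both day 2 libraries for 8 members (22.9%, against 18.4% of all genes tested) and above for 2 (5.71%, against 17.1%). TOMM34 was the third member that the rule took as lower on day 3 (-0.39 and -0.32, limma adjusted p 0.76). CHCHD5, TIMM10 and TOMM20 were the only members above 5 TPM with a higher value on day 3 in both arms. Their mean changes were 0.09, 0.34 and 0.20, with limma adjusted p-values of at least 0.76. Of the 35 members, 3 were higher in both arms (8.57%, against 24.3% of all genes tested) and 9 lower (25.7%, against 24.8%). The median change of the members between the days was -0.08, beside 0.01 for all genes tested, and 14 members (40%) were higher on day 3, against 50.7%. Without the control library of day 3 the members' median was -0.016, beside 0.034 for all genes tested, with 17 members higher and 18 lower. Without the SNHG26 guide library of day 3 it was -0.27, beside -0.020 for all genes tested, with 8 members higher and 27 lower.

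**Figure D5:**
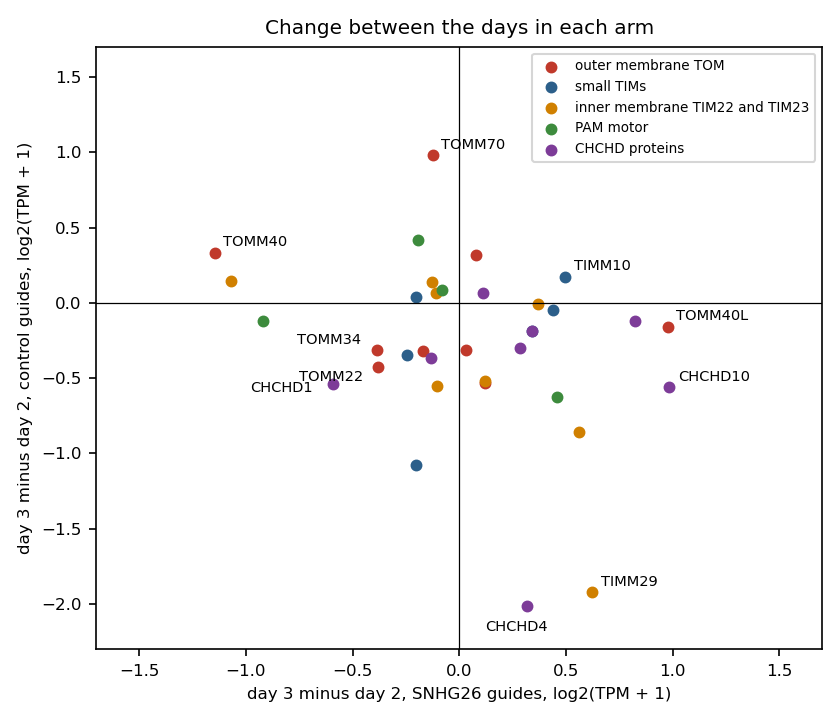
Change from day 2 to day 3 of each tested gene in log2(TPM + 1), in the SNHG26 guide arm (x axis) and in the control arm (y axis), coloured by role. CHCHD1 and TOMM22 lie at about -0.4 to -0.6 on both axes, while TIMM29 and CHCHD4 lie at -1.92 and -2.02 on the y axis and above 0 on the x axis.

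A crossed contrast compared the guide arms' difference on day 3 with that on day 2. With 1 library per arm and day, its spread comes from each gene's own arm and day changes. Its p-values are therefore not set against replicate libraries. No member passed in limma, with 0 of 35 at an adjusted p under 0.05 (0.0967% of all genes tested) and 2 at an unadjusted p under 0.05 (3.52%). These were TIMM29, with -1.42 on day 2 and 1.13 on day 3 (adjusted p 0.961, unadjusted 0.033), and CHCHD10, with -0.70 and 0.84 (adjusted p 0.961, unadjusted 0.0337). The signed change on day 3 minus that on day 2 was above 0 for 23 members (65.7%, against 54.9%), and the reads behind TIMM29 and CHCHD10 are few, as given above.

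Copies of the members were read as well. The table lists 8 processed pseudogenes named after a member, and all rest on 8 reads or fewer in any library. DNAJC19P9 (chromosome 14, 45290036 to 45290386) had 5 and 8 whole reads with the SNHG26 guides and 2 and 3 with the control guides. CHCHD2P9 (chromosome 9) had 6 and 2 against 4 and 3, and CHCHD2P6 (chromosome 1) 2 and 1 against 3 and 2. Each of the other 5, CHCHD3P3, TIMM17BP1, TIMM8BP2, TOMM20P1 and TOMM20P4, had 1 read in 1 library. Reads of such copies can belong to the parent gene, so the parents' values are uncertain by at least these numbers.

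Many members sit beside or across another gene. The start of a gene on the opposite strand lies within 1000 bases of the start of 11 members (29.7%, against 19.5% of all protein-coding genes listed). Among them are TIMM8B with SDHD, a subunit of complex II (26 bases), TIMM10B with ARFIP2 (22 bases) and CHCHD4 with TMEM43 (145 bases). Another listed gene overlaps 11 members (29.7%, against 35.9%). TOMM34 shares 16906 bases with PABPC1L, and TIMM9 and TOMM20L share 208 bases at their ends, each on opposite strands.

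Genes that work with the members were read from lists as well. Of 25 other import genes 24 were listed and 20 tested, with a median log2 change of 0.04 between the arms and 0 past limma's adjusted or unadjusted threshold in either direction. HSPA9, the mitochondrial HSP70, held 36.7 and 38.6 TPM with the SNHG26 guides and 50.6 and 30.2 TPM with the control guides. ROMO1, a small inner membrane protein tied to import, was the highest at 1125 and 1239 TPM against 1103 and 1039 TPM. The largest change among the 20, picked after the values were seen, was that of GFER, the oxidase that works with CHCHD4, at 11.4 and 8.69 TPM against 4.52 and 0 TPM (limma adjusted p 0.935). The control library of day 3 was the lowest for 7 of the 20.

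Of 15 other small proteins with paired cysteine motifs, which CHCHD4 also imports, all 15 were tested, with a median log2 change of 0.03 and 0 past limma's adjusted or unadjusted threshold between the arms. COX17, the copper chaperone of complex IV, held 161 and 171 TPM against 166 and 158 TPM, and NDUFS5 576 and 700.4 TPM against 569 and 586 TPM. The control library of day 3 was the lowest for 6 of the 15. Of the 5 MICOS partners of CHCHD3 and CHCHD6, 4 were tested, with a median change of 0.03 and 0 past either threshold. IMMT, the core of MICOS, stood at 32.5 and 14.7 TPM with the SNHG26 guides and at 6.19 and 31.0 TPM with the control guides, so its arms overlapped.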

How the data were processed

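Poly(A) RNA of 4 H9 libraries was made into oligo-dT primed cDNA, amplified for 14 cycles and sequenced by nanopore, as the labels' protocols state. The authors deposited 1 table of gene TPM values; minimap2 2.24-r1122 and GRCh38 are named in the submitters' processing notes, and the counting tool, annotation release and strand use are not given in the sources used here. Reads were recovered by taking the commonest product of TPM and listed span as 1 read (0.653 to 0.803 TPM on a span of 10 kb). Of 13840 genes with a value, 2853 came out whole within 0.0001 read in all 4 libraries, 4 of them members. For other genes the full span gives an upper bound, and the median transcript span of GENCODE release 29, which holds all 37 members, an estimate. Interval and Poisson limits use 95%.

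Changes are differences of log2(TPM + 1), which understate changes at low levels. A mean of 1 TPM or more was needed to enter limma 3.58.1 in R 4.3.3 (eBayes with a trend, Benjamini-Hochberg over all genes, threshold 0.05), with the arm, the day or their crossing as the single term; the code was tested on simulated data. Values in every library are printed for the 3 highest members of each role, the 5 members each way with the largest smaller change over the 2 days (3 for the day comparison, mean of at least 5 TPM), TOMM7 and paralog pairs, and for some others chosen after their values were seen. The members and lists were chosen with earlier results of these data known. Libraries share a day label; the departures of same-day libraries from the mean of their arm had a correlation of 0.0464 over 8274 genes, and the replicate block, an alternative, was the day for the guide comparison and the crossed contrast, and the arm for the day comparison. Other alternatives were pseudocounts of 0.1 and 5, no filter or at least 5 TPM, quantile and median ratio scaling, no trend, voom on whole reads, and leaving out each library.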

Additional observations from a re-analysis of the deposited data

How the results depend on the processing

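No member passed an adjusted p of 0.05 in any comparison under any alternative run, the replicate block included, and the count of all genes past it between the arms was 0 throughout. The replicate block changed no adjusted call on a member. At a limma unadjusted p under 0.05 the day comparison had 2 members in the main fit, 1 under the replicate block and 0 without the trend. The crossed contrast had 2 in the main fit and 0 without the trend or at 20 estimated reads, where neither was tested. Among all genes, the day comparison's count of 3 past an adjusted p of 0.05 was 7 by voom. It was 0 under quantile normalization, the replicate block (here the arm), either other pseudocount (0.1, 5), no trend, no low-value filter, or a floor of 20 estimated reads. For the crossed contrast the count of 8 genes was 14 at pseudocount 0.1 and 13 at a floor of 5 TPM, and it was 0 by voom, under the replicate block, at pseudocount 5, and without the trend or the filter, or at 20 estimated reads. Leaving out 1 library left 0 genes in each of the 3 comparisons; the lone library of an arm is then assumed to vary like the others.

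The members' median change between the arms was 0.43 with voom, which tested 4 members, beside 0.18 for the 407 genes it tested. It ran from 0.015 to 0.31 when 1 library was left out. The highest was without the control library of day 2, beside 0.043 for all genes tested. Between the days the members' median was -0.35 with voom, beside 0.069 for the 407 genes. With 1 library left out it ran from -0.27 (without the SNHG26 guide library of day 3) to -0.016 (without the control library of day 3). TOMM7 ran from -0.080 to 0.23 and reversed only without the control library of day 3. SNHG26 ran from -2.16 to -1.21, and was -3.47 with a pseudocount of 0.1 and -0.64 with 5. The other named changes kept their sign under every alternative run but not their size: leaving out 1 library gave 0.06 to 0.98 for TIMM44, 0.0054 to 0.39 for TOMM34, 0.15 to 0.65 for TIMM10, 0.30 to 0.66 for TIMM17B and -0.13 to -0.016 for CHCHD5. The control library of day 3 was the lowest for 12 of 21 members with at least 20 estimated reads (35.8% of all such genes) and for 9 of 11 with at least 100 reads as an upper bound. In that last set 4 of 11 members had both SNHG26 guide libraries above both controls (23.1% of all such genes). Both lay below for 1 member, CHCHD5, with median ratio scaling (14.4% of all genes) or quantile normalization (13.1%), and for 1, TIMM23B, without a filter (12.6%). The filters on reads and these counts were chosen after seeing the data. The cause was not tested. Depth limits the low members most: TOMM40L, TOMM40, TIMMDC1 and CHCHD4 had at most 10 reads per library on average.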
